A study of Mus musculus with 9 samples.

Results

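The genes described here are 10 genes of leptin receptor signalling: the receptor gene Lepr, the kinase gene Jak2, the transcription factor genes Stat3, Stat5a and Stat5b, the feedback inhibitor genes Socs1, Socs3 and Cish, the phosphatase gene Ptpn1 and the adaptor gene Sh2b1. They were chosen by symbol, and all 10 were found among the 52459 gene symbols of the deposited count table and among the 16826 genes tested. RNA was sequenced from islets of Langerhans, the hormone-secreting cell clusters of the pancreas, of mice aged 12 weeks. There were 3 libraries each of wild type (WT, labelled +/+), heterozygous (db/+, labelled +/-) and db/db (labelled -/-) mice, and the labels name no treatment. All 9 libraries carry the same strain label. The sex of the mice and whether islets of several mice were pooled are not given in the labels. The p values therefore measure only the spread between these libraries, which may be technical.

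Leptin is a hormone of fat cells that signals energy stores. Its receptor has no kinase activity of its own: JAK2, bound to the receptor's long form, phosphorylates it and the STAT proteins that dock there, and STAT3 and STAT5 dimers then enter the nucleus and switch on genes that include the inhibitors SOCS3 and CISH. The phosphatase encoded by Ptpn1 removes phosphate from JAK2, and SH2B1 binds JAK2 and raises its activity. In beta cells the same kinase and STAT proteins also serve the receptors of growth hormone, prolactin and cytokines. The db allele alters splicing so that the long form of the receptor is lost while shorter forms remain.

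Total counts lay between 8860024 and 11734886 per library. The islet hormone genes were abundant throughout, with Ins2 between 38230 and 59370 and Gcg between 7604 and 18650 CPM (edgeR's depth-scaled count unit, from TMM-normalised library sizes). The libraries WT 1, WT 3 and db/db 1 held both Xist (308 to 596 CPM) and Y-linked RNA (176 to 235 CPM over 4 genes). WT 2 and the db/+ libraries held Y-linked RNA with almost no Xist, and db/db 2 and db/db 3 the reverse. Sex-linked RNA thus differed with genotype, and in db/db against db/+ it cannot be fully told apart from genotype. Summed markers of stellate cells, fibroblasts and pericytes ranged from 718 to 1960 CPM among db/db libraries and from 208 to 339 CPM among the others, and 5 of the 8 markers were higher in db/db than in WT. So were 5 of 6 endothelial, 2 of 5 macrophage, 5 of 10 acinar and 4 of 4 duct markers, where 21.8% of all genes were higher and 19.9% lower. Of 5 beta cell markers 1 was higher and 2, Slc2a2 and Mafa, were lower. Of 4 alpha cell markers 1 was higher and 3 were lower, among them Gcg (log2 fold change -0.81 ± 0.19, adjusted p = 0.00625, edgeR). Of 3 delta and PP cell markers 0 passed. Summed acinar markers ranged from 4871 to 9270 CPM in WT, 11100 to 25360 CPM in db/+ and 12840 to 35080 CPM in db/db, with db/db 1 highest. Every WT library was below every other library, also by the mean log2 acinar marker level that serves below as a covariate. In comparisons with WT this covariate and genotype therefore cannot be fully told apart. Gm42418 and Lars2, gene models that collect ribosomal RNA reads, together took 17.9% and 13.3% of counts in db/db 1 and db/db 2, 0.0558% in db/db 3, 1.89% to 2.58% in WT and at most 0.0237% in db/+. Without these models the numbers of the 10 genes that passed were the same (8 against WT, 4 for db/db against db/+, 0 for db/+ against WT). In bulk tissue, fewer cells of a type and less RNA per cell cannot be told apart.

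Lepr itself was scarce in islets. It stood at 3.17, 1.72 and 1.93 CPM (WT), 4.37, 1.52 and 1.63 CPM (db/+) and 9.47, 2.60 and 2.05 CPM (db/db). These values rest on 18 to 69 counts per library. In each genotype the library numbered 1 was above the others, and the groups overlapped. The labels give no replicate numbers that the groups share, so the number links no libraries across genotypes. The log2 fold change was 1.01 ± 0.65 (SE) for db/db against WT (adjusted p = 0.245) and 0.88 ± 0.64 for db/db against db/+ (adjusted p = 0.309). Without db/db 1 these differences came to 0.01 (adjusted p = 0.988) and -0.11 (adjusted p = 0.880), while with Y-linked counts as covariate they came to 2.16 (adjusted p = 0.00826) and 2.21 (adjusted p = 0.0103) and passed the threshold of 0.05. Reads of the receptor's forms were counted together, so the Lepr counts are no check of the genotype labels.

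The libraries with most Lepr were WT 1, db/+ 1 and db/db 1. Within each genotype the same library also held the highest sum of stellate, fibroblast and pericyte markers (319, 339 and 1960 CPM) and of endothelial markers (396, 396 and 590 CPM), although db/db 3 combined 1234 CPM of the former with only 2.05 CPM of Lepr. Macrophage markers summed to 49.2, 43.8 and 115 CPM in these libraries, the highest of their genotype only in db/db 1. The part of these cells in the Lepr counts was not tested. By root mean square difference of centred log2 CPM over the 9 libraries, the genes most like Lepr were Ccr2 (0.196), a chemokine receptor gene of monocytes, Fam198b (0.240) and Plxdc2 (0.249). The standard deviation of Lepr on the same scale was 0.744. Ccr2 stood at 1.43, 0.542 and 0.711 CPM (WT), 1.46, 0.675 and 0.897 CPM (db/+) and 4.80, 0.991 and 0.647 CPM (db/db), with the same library highest in each genotype.

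**Figure D1:**
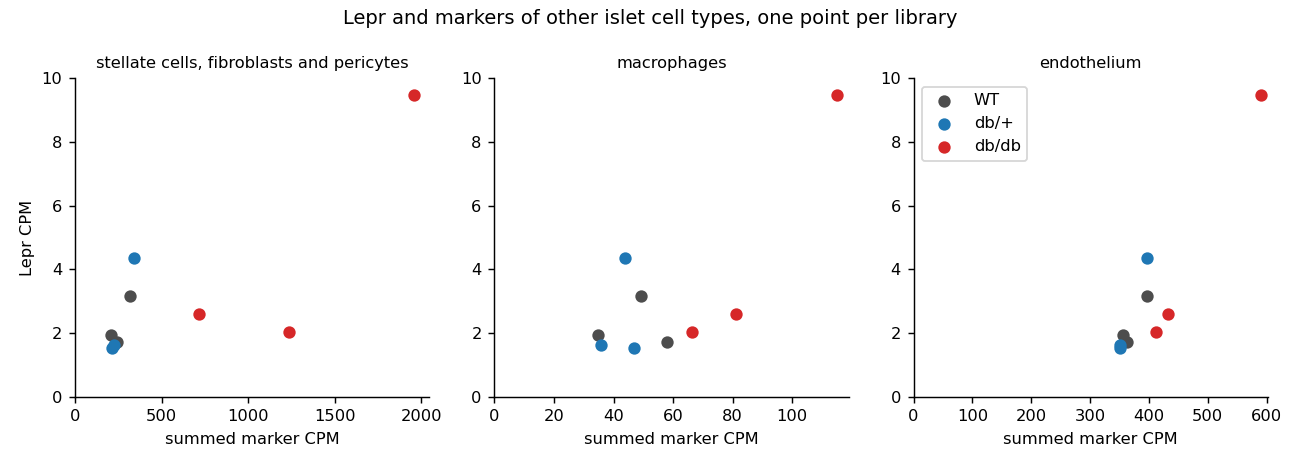
Lepr in CPM (vertical axis) against summed marker CPM for stellate cells with fibroblasts and pericytes, for macrophages, and for endothelium (horizontal axes), with 1 point per library, coloured by genotype. The library at 9.47 CPM of Lepr, db/db 1, is also the highest of the 9 on each horizontal axis.

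Of the genes beside or named after Lepr, Leprot was higher in db/db. It encodes a membrane protein that affects how much leptin receptor reaches the cell surface, and lies on chromosome 4 at 101647783 to 101659364 (GRCm38.p6, RefSeq) and ends 57772 bases before the start of Lepr (101717137 to 101815352), with no overlap. Its level was 18.9, 17.7 and 19.1 CPM (WT), 21.4, 19.0 and 19.8 CPM (db/+) and 29.0, 23.2 and 25.9 CPM (db/db). All db/db libraries were above all others, and Leprot rose by a log2 fold change of 0.48 ± 0.11 against WT (adjusted p = 0.00320) and 0.37 ± 0.11 against db/+ (adjusted p = 0.0152, lost without db/+ 2 or db/db 1, at up to 0.0649, and with library totals as the only scaling, at 0.438). Leprotl1, its paralog, differed from WT by -0.01 ± 0.08 (adjusted p = 0.936) and did not pass. The leptin gene Lep itself had 1 count, in db/db 2, and 0 in the 8 others. A count of 0 allows up to 3 counts, or 0.238 to 0.412 CPM, considering counting error alone.

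Of the 10 genes, 8 passed the test in db/db against WT, where 41.7% of all 16826 tested genes did. Stat5a, Stat5b, Stat3, Cish, Socs1 and Sh2b1 were lower (19.9% of all genes were), Socs3 and Ptpn1 were higher (21.8% of all), and Lepr and Jak2 did not pass. The same 8 genes showed no overlap between the groups, against 51.5% of all genes (26.2% with db/db higher and 25.3% with db/db lower), and the same 8 had an unadjusted p under 0.05, against 49.9%. The median log2 fold change of the 10 genes was -0.40, beside 0.01 over all tested genes. Against db/+, 4 of the 10 passed (40.3% of all genes): Stat5a, Stat5b and Cish were lower (19.7% of all) and Ptpn1 was higher (20.6%), with a median over the 10 of -0.11 beside 0.01. For 5 genes, these 4 and Socs1, the groups did not overlap, as for 52.2% of all genes, and the same 5 had an unadjusted p under 0.05, as did 48.8%. Both comparisons share the db/db libraries. Between db/+ and WT none of the 10 passed in edgeR (1.43% of all genes did, 0.606% higher and 0.82% lower), with 2, Socs3 and Stat3, at an unadjusted p under 0.05 (15.6% of all). DESeq2 called 1 (3.76% of all genes) and limma-voom 0 (0.707%). Stat3 differed there by -0.36 ± 0.13 (adjusted p = 0.215), and the 8 genes other than Socs3 and Stat3 by -0.24 (Stat5a) to 0.17 (Cish), at adjusted p from 0.385 to 0.957.

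The count of 8 against WT depended on libraries and covariates, as did the count over all genes. Without WT 1, WT 3 and db/db 1, the libraries with both Xist and Y-linked RNA, 3 of the 10 passed (Sh2b1, Stat5a and Stat5b), and 25.0% of all genes. With Y-linked counts as covariate 3 passed (Lepr, Stat5a and Stat5b; 28.0% of all genes), and with the mean acinar marker level 3 passed (Socs3, Stat5a and Stat5b; 21.5% of all). The sample titles begin with G in WT 1, WT 2 and all db/+ libraries and with H in WT 3 and all db/db libraries, and the labels do not say what the letter stands for. Within a genotype the letter differs only in WT, so a term for it rests on WT 3 against WT 1 and WT 2. Neither the letter nor the Y-linked counts can be fully told apart from genotype. With the letter as a covariate 3 passed (Stat3, Stat5a and Stat5b; 26.3% of all genes), and against db/+ 1 did (Stat5b; 12.1% of all). Under each of these fits the members' share was near that of all genes. With 1 library left out at a time the count was 4 to 7 (33.6% to 41.1% of all genes), being 4 without WT 1 or any of the db/db libraries and 5 without WT 2 or WT 3.

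**Figure D2:**
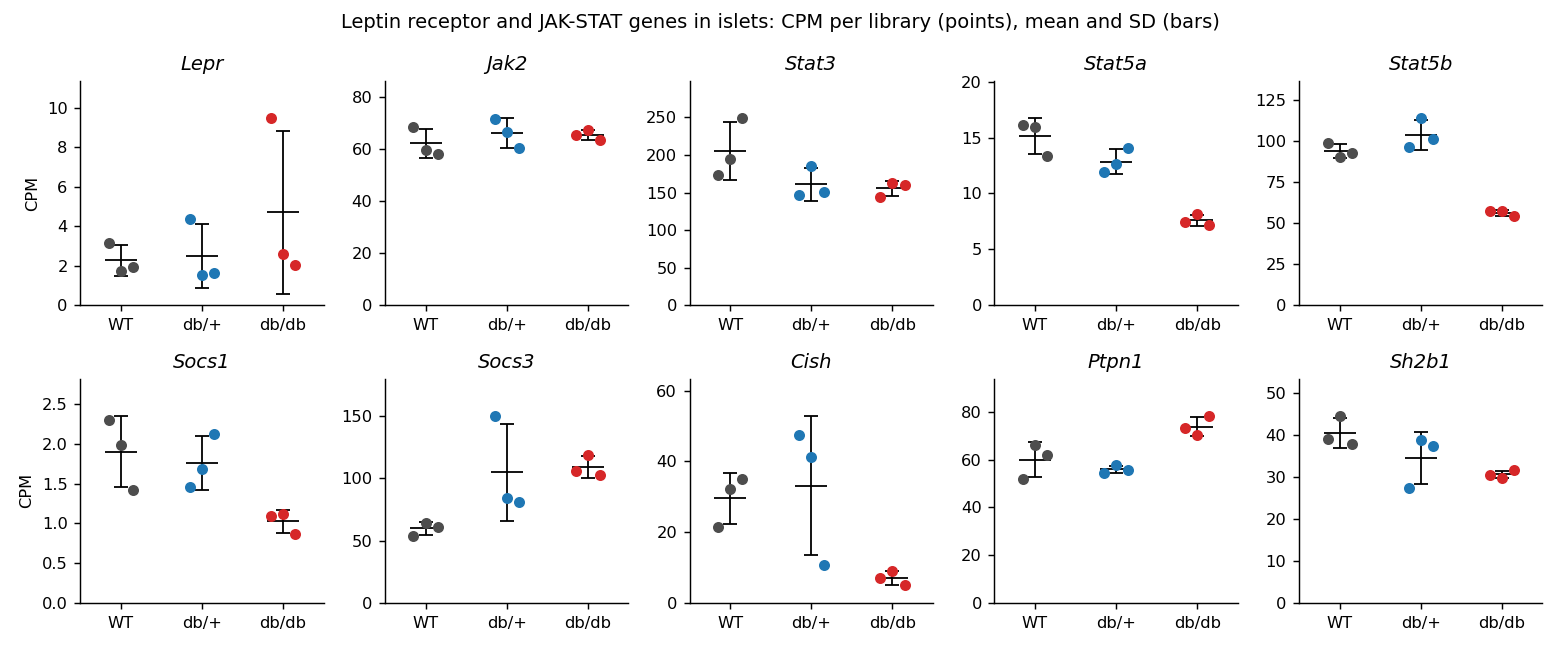
Levels of the 10 genes in CPM (vertical axes, from 0) in WT, db/+ and db/db islets, with a point per library and the group mean with SD. The db/db points of Stat5a, Stat5b and Cish lie below every point of the other groups, and a single high library stands out for Lepr in db/db and for Socs3 in db/+.

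**Figure D3:**
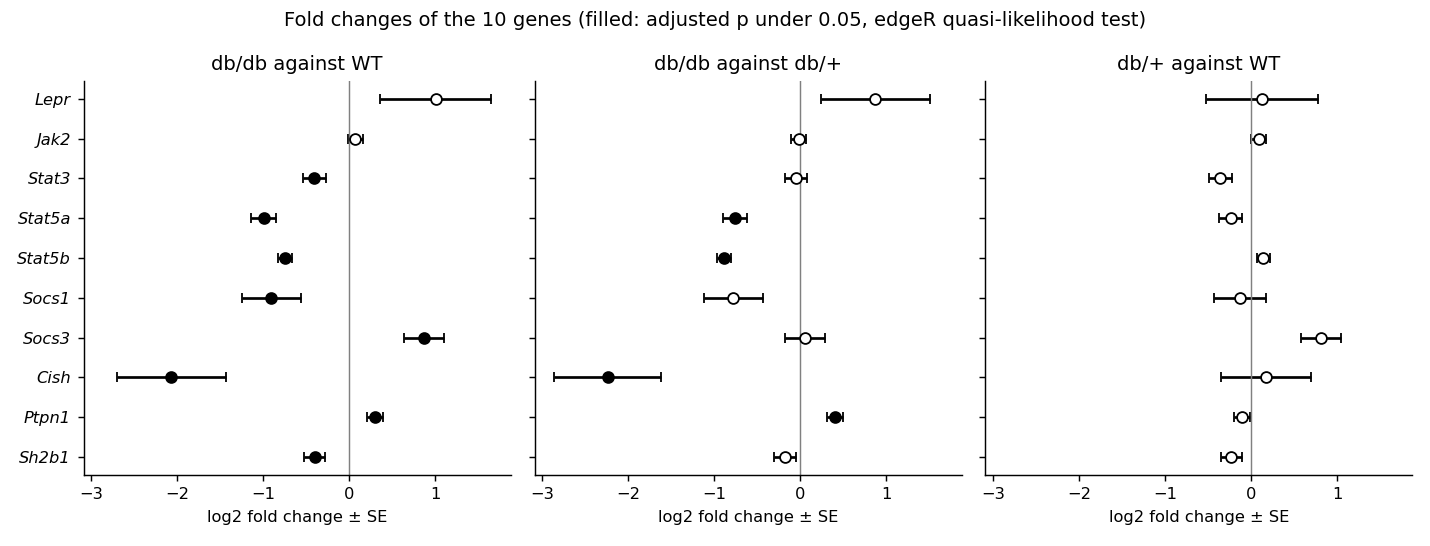
Log2 fold changes of the 10 genes (horizontal axis, with SE) in the 3 comparisons. Filled circles passed the threshold of 0.05 after adjustment over all tested genes, which 8 did against WT, 4 for db/db against db/+ and 0 for db/+ against WT.

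Among the kinases, Jak2 (chromosome 19, 29251803 to 29313095) was nearly level across genotypes. It was at 68.6, 59.8 and 58.1 CPM (WT), 71.6, 66.6 and 60.3 CPM (db/+) and 65.3, 67.5 and 63.6 CPM (db/db). Its log2 fold change was 0.07 ± 0.09 against WT (adjusted p = 0.533) and -0.02 ± 0.09 against db/+ (adjusted p = 0.910). Jak1, the kinase that pairs with many cytokine receptors and is not among the 10, fell by 0.55 ± 0.07 against WT (adjusted p = 3.62e-05), from 214 to 238 CPM in WT to 153 to 160 CPM in db/db.

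The STAT5 genes, which encode closely related transcription factors that act downstream of growth hormone and prolactin as well as leptin, were lower in db/db than in either other genotype. Stat5b was at 98.9, 90.6 and 92.9 CPM (WT), 96.3, 114 and 101 CPM (db/+) and 57.4, 57.4 and 54.2 CPM (db/db). The db/db libraries lay close together and below all others. Stat5b fell by 0.74 ± 0.08 against WT (adjusted p = 7.93e-06) and by 0.88 ± 0.08 against db/+ (adjusted p = 1.88e-06). Stat5a was at 16.1, 16.0 and 13.3 CPM (WT), 11.9, 12.7 and 14.03 CPM (db/+) and 7.41, 8.18 and 7.22 CPM (db/db). It fell by 0.996 ± 0.14 against WT (adjusted p = 8.66e-05) and by 0.76 ± 0.14 against db/+ (adjusted p = 8.47e-04). Against WT, both falls passed under all 21 alternatives, with log2 fold changes from -0.97 to -0.71 for Stat5b and from -1.22 to -0.81 for Stat5a. Against db/+ the fall of Stat5a did not pass with the first letter of the sample title as a covariate (-0.49, adjusted p = 0.195). That term rests on WT 3 against WT 1 and WT 2, so it cannot be fully told apart from genotype.

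Stat5a and Stat5b are alike in coding sequence, and how the authors' counting treated reads that fit both is not given in the sources used here. The values of each are uncertain for that reason. The Stat5b share of their joint counts was 86.0%, 85.0% and 87.5% (WT), 89.0%, 90.0% and 87.8% (db/+) and 88.6%, 87.5% and 88.3% (db/db). These shares moved by a few percentage points (exact permutation test, two-sided, p = 0.1 for db/db against WT and for db/+ against WT, the smallest that 3 against 3 allow, and 0.15 each adjusted over 6 tests), and the share was chosen after the values were seen.

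Stat3, the main STAT of the leptin receptor, was at 174, 195 and 249 CPM (WT), 146, 186 and 150.3 CPM (db/+) and 144, 163 and 159.7 CPM (db/db). WT 3 was the highest library, and db/db overlapped db/+ but not WT. Stat3 fell by 0.40 ± 0.13 against WT (adjusted p = 0.0285) and differed by -0.05 ± 0.13 from db/+ (adjusted p = 0.801). The call against WT ended without WT 3, db/db 1 or db/db 3 (adjusted p from 0.00785 to 0.0924 as each library was dropped), and with the acinar marker level as a covariate the difference came to -0.13 (adjusted p = 0.695).

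The 3 STAT genes are neighbours. On chromosome 11 of GRCm38.p6, Stat5b spans 100780731 to 100859004, Stat5a begins 346 bases further on and spans 100859351 to 100885169, and Stat3 follows after 1636 bases, at 100886806 to 100939594. Stat3 overlaps the long noncoding RNA gene Gm46295 there, while RefSeq lists no gene overlapping the other 9. The tested coding genes nearest on either side went both ways. On the Stat5b side, Ghdc and Rab5c differed from WT by 0.07 ± 0.13 (adjusted p = 0.686) and -0.12 ± 0.08 (adjusted p = 0.238), and Kat2a, a histone acetyltransferase gene, fell by 0.45 ± 0.12 (adjusted p = 0.00987). On the Stat3 side, the caveolar coat gene Cavin1 rose by 1.15 ± 0.30 (adjusted p = 0.0157) and Naglu, a lysosomal enzyme gene, by 0.77 ± 0.11 (adjusted p = 6.92e-05), while the proton pump gene Atp6v0a1 fell by 0.42 ± 0.09 (adjusted p = 0.00281). These 6 genes were chosen by position after the STAT values were seen.

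In db/db against WT, the feedback inhibitor gene Socs3 rose while Cish and Socs1 fell. Socs3 (chromosome 11, 117966079 to 117970336), whose product binds both JAK2 and the leptin receptor and is a classical STAT3 target, was at 53.9, 64.2 and 61.3 CPM (WT), 150.0, 84.1 and 80.9 CPM (db/+) and 106, 118.8 and 103 CPM (db/db). Every db/+ and db/db library was above every WT library, and db/+ 1 was the highest of all. Socs3 rose by 0.87 ± 0.24 in db/db against WT (adjusted p = 0.0204). Between db/db and db/+ the difference was 0.06 ± 0.23 (adjusted p = 0.872), and it became 0.40 (adjusted p = 0.00673) without db/+ 1. For db/+ against WT it was 0.81 ± 0.23 (adjusted p = 0.157, and 0.00122 by DESeq2), where 22.5% of all genes did not overlap between the groups. The call against WT ended without WT 1, WT 3, db/db 1 or db/db 2, at adjusted p up to 0.0747.

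Cish (chromosome 9, 107296659 to 107302784), a classical STAT5 target, was at 21.4, 32.2 and 35.1 CPM (WT), 47.5, 41.2 and 10.8 CPM (db/+) and 7.14, 9.04 and 5.07 CPM (db/db). All db/db libraries were below all others, with db/+ 3 the nearest. Cish fell 4.19-fold against WT (log2 fold change -2.07 ± 0.63, adjusted p = 0.0390) and 4.71-fold against db/+ (-2.24 ± 0.62, adjusted p = 0.0296). The call against WT ended when any single library other than db/+ 1 or db/+ 3 was left out (adjusted p from 1.34e-04 to 0.122), the call against db/+ without db/+ 1, db/+ 2 or any db/db library (from 5.23e-05 to 0.0994), and with the acinar marker level as a covariate the difference from WT came to -0.47 (adjusted p = 0.696).

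Socs3 counts per Cish count put the contrast within each library. The ratio was 2.52, 1.99 and 1.75 (WT), 3.16, 2.04 and 7.52 (db/+) and 14.9, 13.1 and 20.3 (db/db). The db/db values exceeded all others (exact permutation test, two-sided, p = 0.1 against WT and against db/+, the smallest that 3 against 3 allow, and 0.15 adjusted over 6 tests). The ratio was chosen after the values were seen. Against WT its separation was fixed by those of Socs3 and Cish, so it adds no evidence to theirs. Against db/+, where Socs3 did not pass, the ratio mainly repeats the fall of Cish. Socs1, an inhibitor of JAK kinases best known from interferon signalling, was near the limit of the depth, with 14 to 29 counts (WT), 18 to 26 (db/+) and 8, 9 and 8 (db/db). That is 2.30, 1.99 and 1.42 CPM, 1.46, 1.69 and 2.12 CPM, and 1.10, 1.12 and 0.862 CPM. It fell by 0.90 ± 0.34 against WT (adjusted p = 0.0487) and differed by -0.78 ± 0.35 from db/+ (adjusted p = 0.0878). The Socs1 call did not hold in 16 of the 21 alternatives, among them DESeq2 (adjusted p = 0.137) and limma-voom (0.0609), and ended without any single library other than WT 3, at adjusted p up to 0.159.

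Promoter sequences of Socs3 and Cish are shown because these inhibitor genes moved apart. Each holds the 250 bases before the transcription start that the RefSeq promoter table (GRCm38.p6) uses, from chr11:117969367-117969616 on the minus strand for Socs3 and chr9:107296409-107296658 on the plus strand for Cish, written 5′ to 3′ in the sense of the gene. The start used for Cish is the first base of the gene's span, whereas that for Socs3 lies 970 bases inside the span given above, so the Socs3 window is wholly within the span of the annotated gene. Capitals mark a match to TTCNNNGAA, the core that STAT dimers bind, which reads the same on both strands.
Socs3: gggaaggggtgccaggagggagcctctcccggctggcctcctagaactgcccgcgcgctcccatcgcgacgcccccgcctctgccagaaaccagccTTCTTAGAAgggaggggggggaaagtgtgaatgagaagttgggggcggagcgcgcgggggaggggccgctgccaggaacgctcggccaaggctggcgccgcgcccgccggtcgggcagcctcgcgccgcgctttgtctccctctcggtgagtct
Cish: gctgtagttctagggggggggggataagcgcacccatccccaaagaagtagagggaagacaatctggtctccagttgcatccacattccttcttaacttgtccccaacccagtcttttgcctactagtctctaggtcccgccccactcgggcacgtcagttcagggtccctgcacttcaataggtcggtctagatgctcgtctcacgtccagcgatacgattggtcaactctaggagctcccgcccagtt
The Socs3 match begins 154 bases before the start the table uses, and so also within the gene's span. It was the only match in the 14 windows that the table holds for the 10 genes, and 7.02% of all 32851 windows hold at least 1. A match describes letters and is not evidence of binding, and the lack of a match in the Cish window says only that the motif is not in these 250 bases.

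The direct modulators of JAK2, a phosphatase and an activating adaptor, went in opposite directions against WT. Ptpn1 (chromosome 2, 167930750 to 167979385) was at 52.0, 66.1 and 62.1 CPM (WT), 54.3, 57.6 and 55.7 CPM (db/+) and 73.1, 70.1 and 78.2 CPM (db/db). The db/db libraries were above all others, by 1.23-fold against WT (log2 fold change 0.30 ± 0.09, adjusted p = 0.0175) and 1.32-fold against db/+ (0.40 ± 0.09, adjusted p = 0.00326). The call against WT ended without WT 1 or db/db 3, at adjusted p up to 0.0798. With library totals as the only scaling, which shifts the median of all genes by -0.22, the difference of Ptpn1 was 0.09 from WT (adjusted p = 0.608) and 0.18 from db/+ (adjusted p = 0.257). Sh2b1 (chromosome 7, 126466993 to 126476650) was at 39.1, 44.5 and 37.9 CPM (WT), 27.5, 38.9 and 37.4 CPM (db/+) and 30.5, 29.9 and 31.6 CPM (db/db). Sh2b1 fell by 0.40 ± 0.12 against WT (adjusted p = 0.0183, up to 0.0713 and lost without WT 2 or db/db 2). From db/+ it differed by -0.18 ± 0.12 (adjusted p = 0.283), and by -0.32 (adjusted p = 0.0253) without db/+ 1, the lowest library of the 9.

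Levels of different genes can be compared only per kilobase, and exon lengths were taken from GENCODE vM1, which is on the older build NCBIM37. With the union of all exons, the WT order was Stat3 (21.6 ± 4.05 CPM per kilobase, SD, n = 3), Socs3 (20.7 ± 1.84), Stat5b (17.0 ± 0.781), Jak2 (12.4 ± 1.12), Sh2b1 (11.8 ± 1.02) and Ptpn1 (10.9 ± 1.32), followed at a distance by Stat5a (2.12 ± 0.222), Socs1 (1.56 ± 0.365) and Lepr (0.323 ± 0.112). Stat3 overlapped Socs3, Jak2, Sh2b1 and Ptpn1 overlapped each other, and Stat5a overlapped Socs1. The union for Cish, 6419 bases, exceeded the gene's RefSeq span and its longest coding transcript (2850 bases), so the place of Cish depends on the length used. With the longest coding transcript, a length added after the data were seen, Cish stood at 10.4 ± 2.53 CPM per kilobase in WT and 2.49 ± 0.698 in db/db, and with the union at 4.61 ± 1.12 and 1.10 ± 0.310. By the transcript length Ptpn1 (14.3 ± 1.73) came before Jak2 in WT, Stat3 no longer overlapped Socs3, and Stat5a no longer overlapped Socs1. By both lengths Stat3, Socs3 and Stat5b led and Lepr was last in WT, and Socs3 came first in db/db (37.8 ± 2.95 by the union and 42.8 ± 3.34 by the transcript), ahead of Stat3 (16.3 ± 1.09 and 25.7 ± 1.72).

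Genes with patterns most like those of the inhibitors were found by the same distance. For Socs3, whose centred log2 CPM had a standard deviation of 0.484, they were the keratin gene Krt8 (0.165), the linker histone gene Hist1h1e (0.172) and Wee1 (0.199), a kinase gene of the cell cycle. Krt8 ran at 81.6, 88.1 and 112 CPM (WT), 226, 153 and 137 CPM (db/+) and 134, 175 and 159 CPM (db/db), with db/+ 1 highest as for Socs3. For Cish, with a standard deviation of 1.17, they were Apobec1 (0.448), an RNA-editing enzyme gene, the iron exporter gene Slc40a1 (0.492) and Stk32b (0.4996). Apobec1 was at 37.4 to 60.0 CPM (WT), 28.7 to 62.4 CPM (db/+) and 8.94 to 10.98 CPM (db/db), and its lowest db/+ library was db/+ 3, as for Cish.

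Beyond the 10 genes, lists of other pathway genes held 129 symbols of 127 genes, as 2 are older symbols of listed genes, and 85 were tested. Of these, 10 reached the level the filter asks for only through the db/db libraries, among them Il6, Reg3g, Lcn2, Lrg1 and Csn3. Such genes could be called higher but hardly lower, so the list counts and medians lean upward. In db/db against WT, 24 of the 85 rose and 15 fell (45.9%, beside the 41.7% of all genes), and against db/+ 22 rose and 16 fell (44.7%, beside 40.3%). Both shares were near those of all genes. With the acinar marker level as a covariate 23 of the 85 passed against WT in place of 39 (21.5% of all genes), and with the title letter 16 passed against db/+ in place of 38 (12.1% of all). Most ligand genes were below the filter. Of 27 ligand genes, 6 were tested, 4 of them only through db/db, and 3 rose and 0 fell against WT (median log2 fold change 1.10; 21.8% of all genes rose and 19.9% fell). Among them were Il6 and Ctf1, of the interleukin 6 family, whose receptors signal through JAK kinases and STAT3. Il6 had 1, 1 and 0 counts (WT), 20, 0 and 2 counts (db/+) and 60, 24 and 19 counts (db/db) (adjusted p = 0.00820 against WT). Its most abundant library within db/+ and within db/db was the library with most Lepr. Ctf1, the cardiotrophin gene, named after its value was seen, rose by 1.01 ± 0.30 (adjusted p = 0.0162, and 0.0809 without db/db 3). The calls of Il6 (adjusted p = 0.135) and Ctf1 (adjusted p = 0.310) against WT ended with the acinar marker level as a covariate.

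Of 38 genes of JAK-coupled receptors, 27 were tested, 1 of them, Il22ra1, only through db/db. Against WT 11 of these receptor genes rose, Il22ra1 among them, 5 fell and 11 did not pass (59.3% called, beside 41.7% of all genes; median 0.25). Those of the interleukin 6 family, apart from Lifr and Cntfr chosen after their values were seen, went both ways. Lifr, the leukemia inhibitory factor receptor gene, was at 322, 321 and 332 CPM (WT), 325, 321 and 302 CPM (db/+) and 119.1, 95.0 and 101 CPM (db/db). WT overlapped db/+, and all db/db libraries were below both. Lifr fell by 1.63 ± 0.09 against WT (adjusted p = 1.35e-08) and by 1.59 ± 0.09 against db/+ (adjusted p = 1.71e-08). Cntfr fell by 1.34 ± 0.17 (adjusted p = 4.28e-05), and Il6st, the shared signalling chain gp130, by 0.59 ± 0.10 (adjusted p = 2.57e-04), from 165 to 171 CPM in WT to 102 to 133 CPM in db/db. Il6ra, the ligand-binding chain for interleukin 6, was at 183, 205 and 233 CPM (WT), 148, 159.7 and 157 CPM (db/+) and 289, 298 and 296 CPM (db/db). Its 3 groups did not overlap. It rose by 0.51 ± 0.09 against WT (adjusted p = 3.80e-04) and by 0.93 ± 0.09 against db/+ (adjusted p = 2.36e-06). Osmr, the oncostatin M receptor gene, rose by 1.28 ± 0.19 against WT (adjusted p = 1.32e-04), and was highest in db/db 1 (28.3 CPM). Fibroblasts and endothelium express Osmr too, and their part was not tested. The interferon receptor gene Ifnar2 rose by 1.07 ± 0.12 (adjusted p = 8.49e-06) and Crlf2, a subunit of the receptor for thymic stromal lymphopoietin, by 1.60 ± 0.18 (adjusted p = 8.95e-06).

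**Figure D4:**
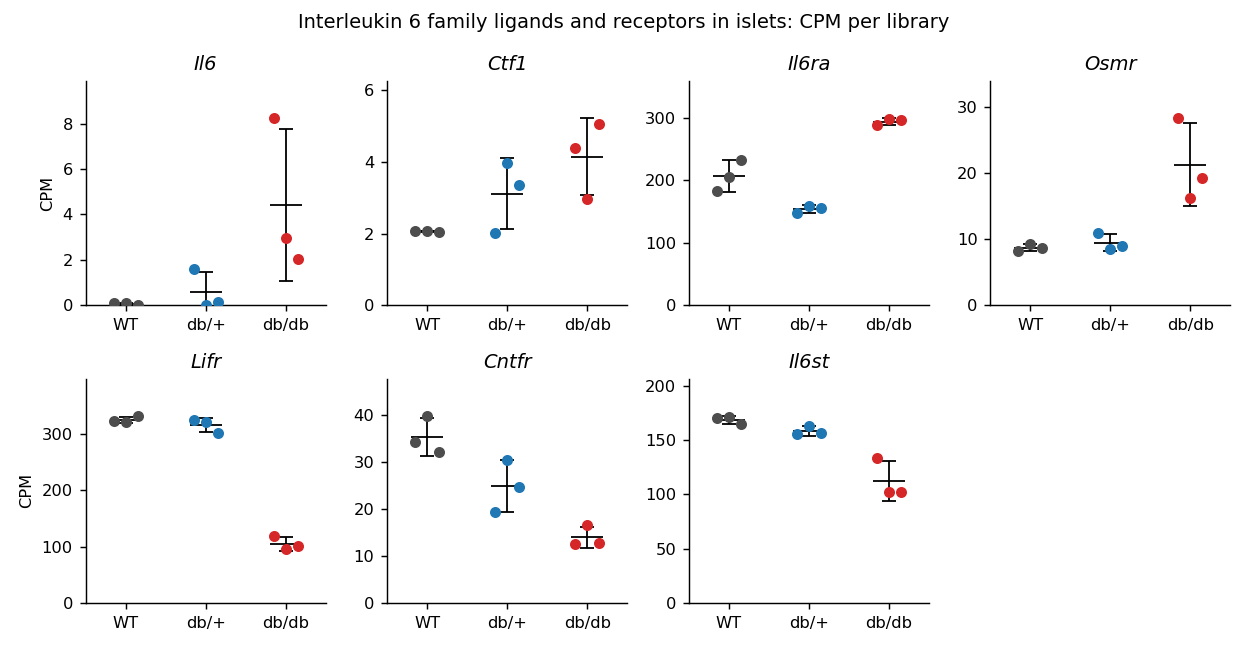
Levels in CPM (vertical axes, from 0) of interleukin 6 family ligand genes (Il6, Ctf1) and receptor genes (Il6ra, Osmr, Lifr, Cntfr, Il6st) in WT, db/+ and db/db, with a point per library and the mean with SD. In db/db, Lifr lies between 95.0 and 119.1 CPM, below all other libraries, and Il6ra between 289 and 298 CPM, above all others.

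Other kinases and STATs fell or did not pass. Of the 6 tested, 3 fell against WT and 0 rose (50% called, median -0.27). Over all genes 41.7% were called, 21.8% higher and 19.9% lower, so the share called in these few genes was near that of all. Among those that fell were Jak1, given above, and Stat2, by 1.04 ± 0.14 (adjusted p = 6.96e-05). Of 17 tested inhibitors and partners of the SOCS proteins, 1 rose and 2 fell (median -0.13), a share of 17.6%, below the 41.7% of all genes. Socs4 fell by 0.48 ± 0.10 (adjusted p = 0.00184) and Cul5, the cullin that SOCS-box proteins recruit, by 0.26 ± 0.07 (adjusted p = 0.00653). Rnf7 rose by 0.32 ± 0.12 (adjusted p = 0.0486, from 0.0396 to 0.210 as each library was dropped, the call being kept only without WT 3, db/+ 1 or db/db 1). Of 12 tested adaptors, 3 fell (Irs1, Shc1 and Stam2) and 0 rose (25.0% called, beside 41.7% of all genes, with a median of -0.01). Irs1, an adaptor of the insulin receptor, fell by 0.84 ± 0.11 (adjusted p = 5.50e-05), and Shc1 by 0.75 ± 0.15 (adjusted p = 0.00284).

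Genes known as STAT targets were mixed. Of 13 tested STAT3 targets, 8 rose and 1 fell against WT (69.2% called, beside 41.7% of all genes; median 0.61), and 3 of those that rose were tested only through db/db. Reg3g, a lectin gene, had 1 count in each WT library and 86, 80 and 108 counts in db/db (adjusted p = 1.64e-08). The acute-phase gene Lcn2 rose from 0.690 ± 0.366 to 10.4 ± 3.99 CPM (log2 fold change 3.85 ± 0.40, adjusted p = 5.37e-06), and Lrg1 from 0.211 ± 0.0565 to 3.51 ± 1.89 CPM (adjusted p = 5.25e-05), both highest in db/db 1. Reg3g, Lcn2 and Lrg1 are the 3 genes tested only through db/db, and they could hardly have been called lower. Their calls therefore say little about STAT3 targets as a set, and the share and median given above rest partly on them. Junb, an immediate early transcription factor, fell by 0.54 ± 0.14 (adjusted p = 0.00824). Of 8 tested STAT5 targets, 3 rose and 2 fell (62.5% called, median 0.15), where 21.8% of all genes rose and 19.9% fell. Of the 8, 2 were tested only through db/db, Csn3 among them. Csn3, a casein gene known from the mammary gland, had 2, 1 and 0 counts in WT and 128, 105 and 217 counts in db/db (adjusted p = 4.49e-08). Igf1 rose by 2.36 ± 0.51 (adjusted p = 0.00427) and was highest in db/db 1 (17.7 CPM), the library with most stellate, fibroblast and pericyte markers, and with the acinar marker level as a covariate its call ended. Ccnd2, the D cyclin gene of beta cell growth, fell by 1.56 ± 0.12 (adjusted p = 4.25e-07), and the prolactin receptor gene Prlr fell by 0.83 ± 0.18 (adjusted p = 0.00436). Pim1, a kinase gene on both target lists, rose by 0.56 ± 0.13 (adjusted p = 0.00458). Osmr is on the receptor list and the STAT3 list, and Prlr on the receptor list and the STAT5 list.

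**Figure D5:**
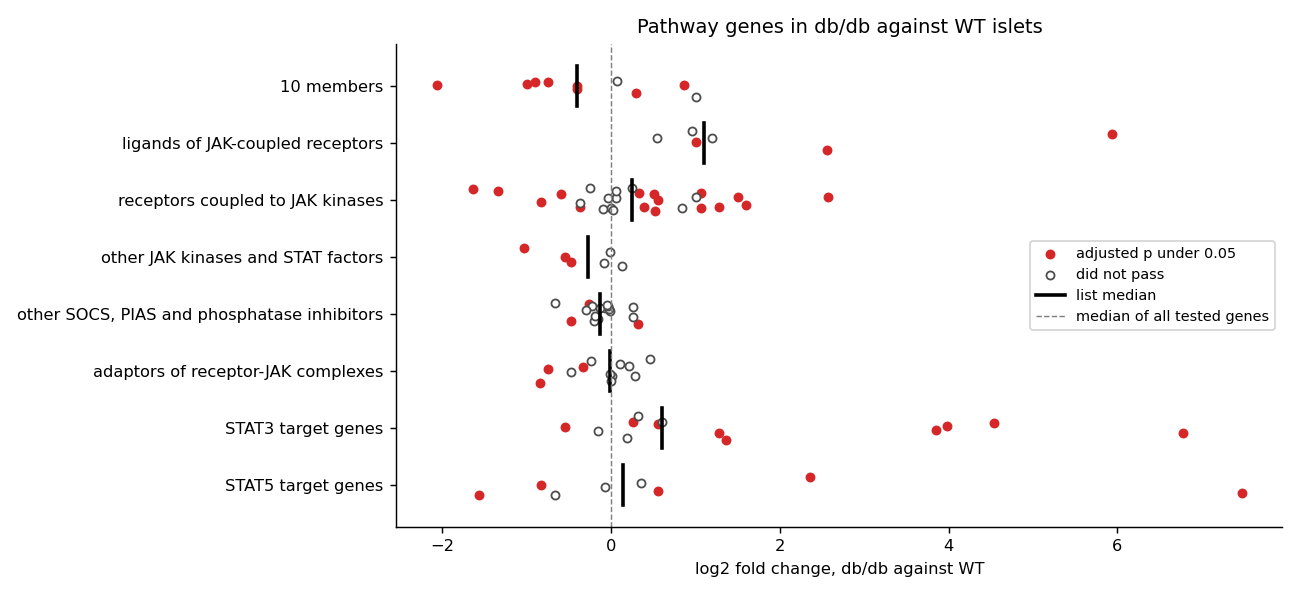
Log2 fold changes in db/db against WT (horizontal axis) of the 10 genes and of the tested genes of 7 pathway lists (rows), with 1 point per gene, filled where the adjusted p was under 0.05. Black bars are list medians, from -0.40 for the 10 genes to 1.10 for the ligands, and the dashed line is the median of all tested genes (0.01).

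In db/+ against WT, 4 of the 85 pathway genes passed (4.71%, beside 1.43% of all genes) and are named for that. The immediate early genes Junb and Fos and the kinase gene Pim1 rose, and Il6ra fell. Junb was at 343, 456 and 498 CPM in WT and 849, 696 and 654 CPM in db/+, a log2 fold change of 0.76 ± 0.14 (adjusted p = 0.0362). Fos was at 1652 to 1947 CPM in WT and 2271 to 2995 CPM in db/+ (0.53 ± 0.11, adjusted p = 0.0412), and Pim1 at 10.5 to 12.1 and 15.7 to 20.4 CPM (0.67 ± 0.13, adjusted p = 0.0363). All 3 were highest in db/+ 1, as was Socs3. Il6ra fell by 0.42 ± 0.09 (adjusted p = 0.0398). The count was 0 without db/+ 1, db/+ 2 or db/db 2, where 0.135%, 0.158% and 0.457% of all genes passed. It was 1 without WT 3 (0.255% of all), and 2 without WT 1, WT 2 or db/db 3 (1.07%, 0.956% and 0.617%). The share of all genes thus fell as well in these fits.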

How the data were processed

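RNA sequencing counts of 9 islet libraries were used. Per the labels' protocols, RNA was extracted with Trizol and libraries were made after ribosomal RNA removal. The tools named in the submitters' processing notes are bcl2fastq (2.20.0.422) and TopHat2 (2.0.14), and the build is mm10. Counting program, annotation and strand setting were not given in the sources used here. Reads of paralogs and overlapping genes can therefore be shared. The authors deposited unnormalised read counts per gene symbol; 1 column of the table matches no sample and was not used. Genes were kept with filterByExpr, scaled with TMM and fitted over all 9 libraries, with a term per genotype, in edgeR 4.0.16 (R 4.3.3; robust quasi-likelihood F-test, two-sided, Benjamini-Hochberg adjustment over all tested genes, threshold 0.05). Standard errors were derived from the fold change and the F statistic. The test was tried first on simulated counts with the same spread for all genes. They held no differences in cell types, sex or ribosomal RNA, so the trial cannot speak for the calls made here. The members, lists and alternatives were chosen with earlier results of these data known. The genes named are the 10 members, Leprot and Leprotl1, from each list the 2 (target lists 3) risen and fallen genes with the smallest adjusted p against WT, and the 3 genes most like Lepr, Socs3 and Cish among those of at least 1 CPM; others are said to be chosen later, and some genes the rule names are not reported here. Alternatives used DESeq2 1.42.0 and limma 3.58.1 (voom), other scalings and filters, covariates, and libraries left out. Gene positions and upstream sequences are RefSeq's on GRCm38.p6, the assembly of mm10. Figures were drawn with matplotlib 3.10.9.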

Additional observations from a re-analysis of the deposited data

How the results depend on the processing

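Each test result was recomputed under 21 alternatives, and the levels per kilobase with a second length. The falls of Stat5a and Stat5b against WT passed under all 21. Of the 10 genes, the number that passed against WT was 5 in place of 8 without a low-count filter and 3 with the title letter, the acinar marker level or the Y-linked counts as a covariate, or without the 3 libraries holding both Xist and Y-linked RNA. The share of all genes fell too, from 41.7% to 25.0%, 26.3%, 21.5%, 28.0% and 25.0% in that order. The title letter, the acinar level and the Y-linked counts cannot be fully told apart from genotype, as said above. The number of the 10 that passed was 1 in place of 4 for db/db against db/+ with the title letter (12.1% of all genes). For db/+ against WT it was 1 in place of 0 without the filter and with DESeq2 (2.57% and 3.76% of all). With a library left out at a time it was 4 to 7, 3 to 5 and 0 to 0 in these comparisons. Of the 85 pathway genes, 23 in place of 39 passed against WT with the acinar level and 16 in place of 38 against db/+ with the title letter, where 12.1% of all genes passed. For db/+ against WT 2 in place of 4 passed with library totals (1.17% of all genes) and 9 without the filter (2.57%). With the title letter, with the acinar level or without the 3 libraries 1 passed (0.267%, 0.523% and 0.544% of all). The ranges with a library left out were 36 to 42, 30 to 41 and 0 to 4. Of all genes, 33.6% to 41.1%, 31.9% to 40% and 0.135% to 2.5% passed in these fits.

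Changes of sign, none of a called difference, were these log2 fold changes. With library totals, which shifted the median of all genes against WT by -0.22 and turned 3670 higher and 3348 lower genes into 2176 and 5317, Jak2 (-0.15) against WT and Socs3 (-0.18) against db/+ changed sign. With limma-voom Lepr (-0.006) and Cish (-0.05) did so in db/+ against WT. With the title letter these were Leprotl1 (0.045) against WT and Jak2 (0.13) against db/+. With the acinar level they were Lepr (-0.16), Leprotl1 (0.058) and Fos (0.17) against WT, Stat3 (0.016) against db/+, and Lepr (-0.54) in db/+ against WT. With the Y-linked counts Lepr was at -0.048 in db/+ against WT, and without the 3 libraries at -0.13 against db/+. With a library left out, db/+ against WT ranged from -0.289 to 0.037 for Socs1, -0.18 to 0.59 for Cish and -0.54 to 0.46 for Lepr; db/db against WT from -0.080 to 0.027 for Leprotl1; and db/db against db/+ from -0.081 to 0.040 for Jak2, -0.117 to 0.064 for Stat3, -0.11 to 0.40 for Socs3 and -0.11 to 1.54 for Lepr. The cause was not tested. No paired analysis was possible because the labels give no replicate numbers that the groups share. Depth limits Lepr and Socs1, with 8 to 69 counts per library.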
